A study of Mus musculus with 8 samples.

Results

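Zbtb16 encodes PLZF, the zinc finger repressor that gives natural killer T (NKT) cells their innate-like behaviour. It was described here with 5 other genes of the BTB zinc finger family that act in lymphocytes: Zbtb7b, Zbtb7a, Zbtb20, Zbtb1 and Zbtb17. The 6 genes were picked by symbol from the 27179 genes counted, and all 6 passed the filter on low counts. RNA-seq read counts were available for NKT cells sorted from the thymus of C57BL/6 mice, in 4 WT and 4 Ezh2-KO libraries. Ezh2 encodes the histone methyltransferase of the Polycomb complex PRC2. Sorting on CD44 and NK1.1 gave 3 stages. CD44- NK1.1- cells, usually placed earliest in thymic NKT development, gave 1 WT and 1 Ezh2-KO library. CD44+ NK1.1- cells, placed next, gave 2 biological replicates of each genotype, and CD44+ NK1.1+ cells, placed last, gave 1 library of each. Age, and the promoter or allele used to remove Ezh2, were not given in the sources used here. Nothing says which subsets, if any, share animals, so p-values treat the libraries as independent.

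On GRCm38 the RefSeq table places Zbtb16 (Entrez gene 235320) at chr9:48651797-48836225, Zbtb7b (22724) at chr3:89377644-89393673 and Zbtb7a (16969) at chr10:81135225-81152222. Zbtb20 (56490) lies at chr16:42875689-43634392, Zbtb1 (268564) at chr12:76370051-76396955 and Zbtb17 (22642) at chr4:141444673-141467937.

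Proteins of this family join a BTB domain, through which they pair with each other and bind corepressors such as NCOR and histone deacetylases or the ubiquitin ligase scaffold CUL3, to zinc fingers that bind DNA. PLZF is switched on in NKT precursors after strong T cell receptor signals and SLAM receptor contacts, which act through EGR factors, and it is needed for their effector programme. ThPOK, the product of Zbtb7b, sets the CD4 helper fate by holding Runx3 and CD8 genes off, and LRF, the product of Zbtb7a, works beside it. Zbtb20 is a close relative of PLZF first known for silencing alpha-fetoprotein in liver. Zbtb1 is needed for lymphocyte development, and Zbtb17 encodes MIZ-1, a partner of MYC that supports IL-7 signalling by restraining Socs1.

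Labels were checked first. Levels are TMM-scaled CPM (counts divided by the scaled library size), and depth ran from 20308745 to 22995090 counts per library. Ezh2 stood at 113 and 136 CPM in the WT and 83.3 and 77.9 CPM in the Ezh2-KO CD44+ NK1.1- libraries, at 57.2 against 40.4 CPM in CD44+ NK1.1+ and at 109 against 78.4 CPM in CD44- NK1.1- cells. It was lower in the Ezh2-KO library of every subset (log2 fold change -0.56, SE 0.0740, adjusted p = 0.00402 over the 3 subsets, edgeR quasi-likelihood), and counts over the whole gene do not show which part was deleted. Klrb1c, the NK1.1 gene, stood at 1146 and 1447 CPM in the CD44+ NK1.1+ libraries and at 15.4 to 217 CPM in the rest. Cd44 stood at 17.0 and 17.9 CPM in the CD44- libraries and at 135 to 452 CPM in the rest. WT CD44+ NK1.1- replicate 1 stood apart: its 19 immediate early genes summed to 4703 CPM, against 1076 to 2274 CPM in the other 7 libraries, and it also had the highest Rag1 (18.0 CPM) and, outside the NK1.1+ libraries, the highest Klrb1c (217 CPM). Csf1r, a defining marker of myeloid cells, reached at most 1.01 CPM. The haemoglobin gene Hba-a1 reached 14.8 to 44.7 CPM in 3 of 4 Ezh2-KO libraries against at most 0.86 CPM in the other 5.

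Zbtb16 fell from subset to subset, while Zbtb7b, Zbtb7a and Zbtb20 were higher in CD44+ NK1.1+ than in CD44+ NK1.1- cells. A gene was called at an adjusted p under 0.05 over 13794 tested genes. Between CD44+ NK1.1+ and CD44+ NK1.1- cells 4 of the 6 were called, 3 higher and 1 lower, where 32.5% of all tested genes were called, 16.4% higher and 16.1% lower. Between CD44+ NK1.1+ and CD44- NK1.1- cells 2 were higher and 1 lower, beside 32.2% of all genes, 16.0% higher and 16.2% lower. Between CD44+ NK1.1- and CD44- NK1.1- cells only Zbtb16 was called, lower, beside 2.66% of all genes called in either direction and 1.07% called lower. Loss of Ezh2 lowered Zbtb7a in CD44+ NK1.1- cells, beside 4.94% of all genes called in either direction and 1.16% called lower. With all subsets together it lowered Zbtb7b, Zbtb7a and Zbtb1, beside 11.3% called in either direction and 4.89% called lower. None was called higher without Ezh2 in these 2 comparisons. Subsets with 1 library per genotype were assumed to vary like the replicated one. Calls between genotypes in CD44+ NK1.1- cells rested on all 4 libraries: without Ezh2-KO replicate 1 or 2 no member, and no gene of the 7 lists of regulators and targets described below, was called in that comparison, and over all genes 522 higher and 160 lower calls became 96 and 5 or 105 and 3. Without WT replicate 1 or 2, when the spread rests on the Ezh2-KO pair alone, they became 1891 and 1861 or 2899 and 2893, and 3 or all 6 members were called lower in place of 1. Counts between subsets moved likewise. A run without the only library of a subset in a genotype compares the subsets within the other genotype alone. Between the CD44+ subsets 2262 higher and 2217 lower calls became 4462 and 4123 or 4038 and 3838 without WT CD44+ NK1.1- replicate 1 or 2. They became 818 and 809 or 733 and 786 without Ezh2-KO replicate 1 or 2, and 1307 and 1295 or 774 and 642 without the WT or the Ezh2-KO CD44+ NK1.1+ library. From CD44- NK1.1- to CD44+ NK1.1- cells 220 higher and 147 lower calls became 1713 and 1748 or 2239 and 2155 without those WT replicates. They fell to 58 and 25 or 66 and 24 without the Ezh2-KO replicates and to 65 and 4 without the WT CD44- NK1.1- library.

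**Figure D1:**
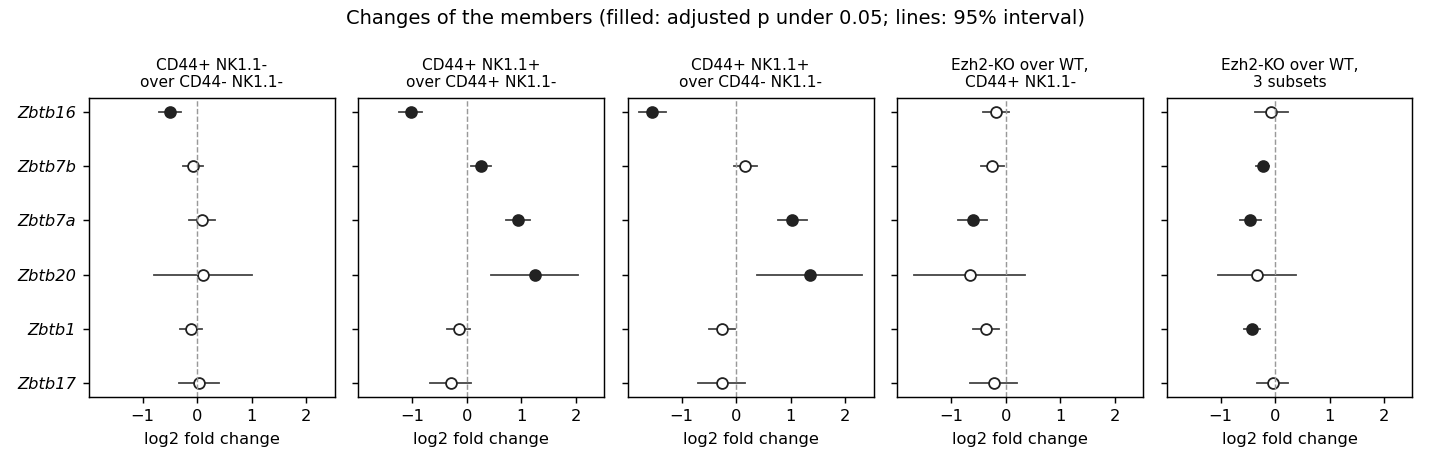
Log2 fold changes (horizontal axis) of the 6 genes in 5 comparisons, with lines for the 95% interval and filled points for an adjusted p under 0.05. Zbtb16 lies left of 0 in all 3 subset panels, Zbtb7a lies right of 0 in both panels that involve CD44+ NK1.1+ cells, and every point of the Ezh2-KO panels lies left of 0.

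Zbtb16 was read at 449 CPM in the WT and 344 CPM in the Ezh2-KO CD44- NK1.1- library. The WT CD44+ NK1.1- replicates gave 310 and 278 CPM and the Ezh2-KO replicates 262 and 257 CPM. In CD44+ NK1.1+ cells the WT library held 114 CPM and the Ezh2-KO library 160 CPM. The order of the subsets was the same in both genotypes, and no library of 1 subset overlapped with those of another. At 2365 to 9979 reads per library, counting error was small beside these steps. The range over the 8 libraries, 1.97 on the log2 scale, was wider than that of 83.8% of tested genes.

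Zbtb16 was lower in CD44+ NK1.1- than in CD44- NK1.1- cells by a log2 fold change of -0.51 (SE 0.083, adjusted p = 0.0356, edgeR quasi-likelihood). It was lower again in CD44+ NK1.1+ than in CD44+ NK1.1- cells, by -1.03 (SE 0.089, adjusted p = 0.00109). From the first subset to the last the change was -1.54 (SE 0.0997, adjusted p = 0.000379), a 2.91-fold fall. The first of these steps no longer passed the threshold without the WT or the Ezh2-KO CD44- NK1.1- library (adjusted p = 0.407 and 0.0725) or without Ezh2-KO CD44+ NK1.1- replicate 1 or 2 (0.299 and 0.314), whereas the other 2 steps passed in every alternative run. The runs without a CD44- NK1.1- library compared these subsets within the other genotype only. In bulk RNA a fall in the number of Zbtb16-high cells and a fall in RNA per cell cannot be told apart. Of 13 NK and innate lymphoid markers, 12 rose in CD44+ NK1.1+ over CD44+ NK1.1- cells, where 16.4% of all tested genes were called higher. The sum of the 13 stood at 4072 and 5245 CPM in the 2 CD44+ NK1.1+ libraries against 874 to 1379 CPM elsewhere. NKT cells express several of these genes too, and Id2 and Il7r stand on other lists used below. Ncr1, which defines NK cells, reached 4.73 and 6.79 CPM there and at most 0.225 CPM elsewhere, while Cd3e, a subunit of the T cell receptor complex, was also highest there (621 and 611 CPM against 380 to 467 CPM). Sums of 9 B cell markers (304 and 353 CPM against 141 to 171 CPM) and 10 myeloid markers (31.2 and 29.2 CPM against 5.81 to 14.4 CPM) were also highest in those 2 libraries. The part of other cells in the fall of Zbtb16 was not tested.

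**Figure D2:**
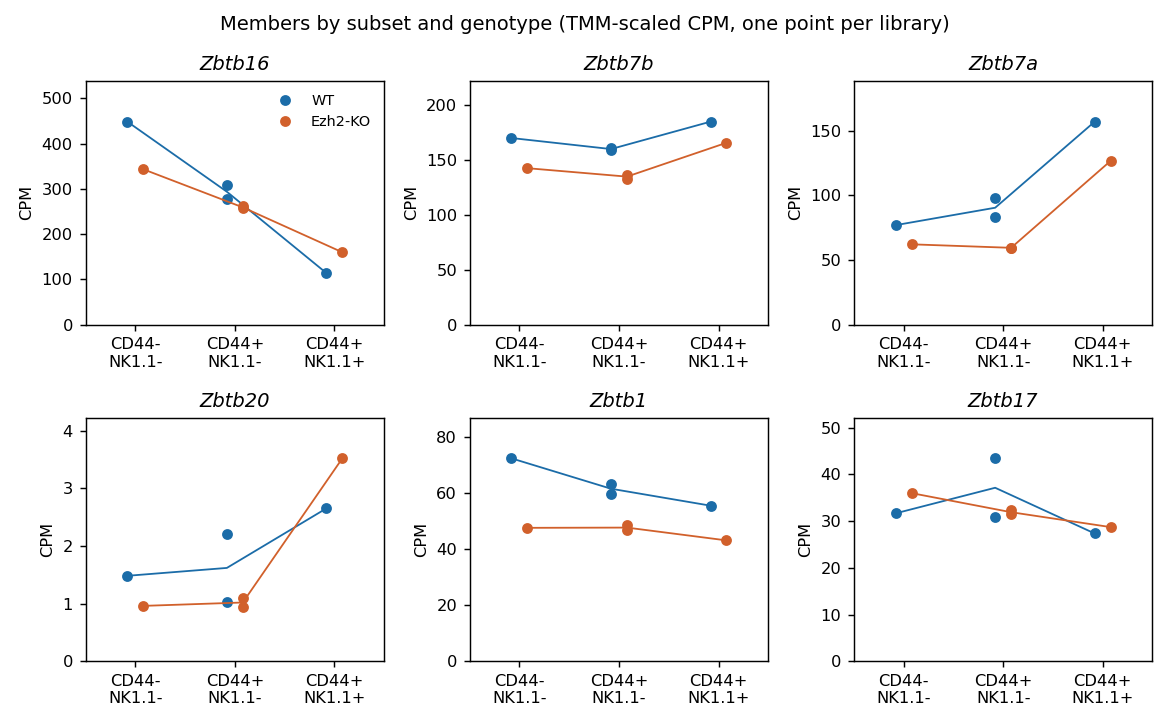
CPM of each gene (vertical axis, from 0) in the 3 subsets, 1 point per library and lines through the means of WT (blue) and Ezh2-KO (orange). Zbtb16 steps down from 449 to 114 CPM in WT and from 344 to 160 CPM in Ezh2-KO, and the lines cross between the 2 CD44+ subsets.

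The fall was 3.93-fold in WT and 2.15-fold in Ezh2-KO cells from the first subset to the last. Ezh2-KO cells held less Zbtb16 than WT in CD44- NK1.1- cells (log2 fold change -0.39, adjusted p = 0.473) and more in CD44+ NK1.1+ cells (0.49, adjusted p = 0.268), neither of which passed the threshold in edgeR, except without WT CD44+ NK1.1- replicate 1 or 2. In those comparisons 0.239% and 0.950% of tested genes were called, and none of the 6. In CD44+ NK1.1- cells the means were 294 ± 22.4 CPM in WT and 259 ± 3.26 CPM in Ezh2-KO (SD, n = 2 each). That difference of -0.18 had a 95% interval from -0.42 to 0.06 and an adjusted p of 0.360 in edgeR, although the replicates did not overlap. Without WT replicate 2 it was -0.26 and passed (adjusted p = 0.00358, edgeR), the spread then resting on the Ezh2-KO pair. Over the 3 subsets the difference was -0.07 (adjusted p = 0.789), a mean of effects that pointed both ways.

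The genotype effect on Zbtb16 in CD44+ NK1.1+ cells minus that in CD44- NK1.1- cells was 0.87 (95% interval 0.40 to 1.35, adjusted p = 0.493 in edgeR). Against CD44+ NK1.1- cells the effect differed by 0.67 (95% interval 0.26 to 1.08, adjusted p = 0.894 in edgeR). The effect in CD44- NK1.1- minus that in CD44+ NK1.1- cells was -0.21 (95% interval -0.61 to 0.20, adjusted p = 0.992). In the first 2 tests 0 of the 13794 genes (0%) were called and 657 and 519, Zbtb16 among them, had an unadjusted p under 0.05. Both counts are below the share of 0.05 that this cut would pass if no gene differed. In the last test 0.0217% were called. A flatter course of Zbtb16 without Ezh2 was seen in the levels and did not pass the test over all genes. It passed only without WT CD44+ NK1.1- replicate 1 or 2 (adjusted p = 2.70e-09 and 3.20e-09 for the first difference), when the spread rests on the Ezh2-KO pair.

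**Figure D3:**
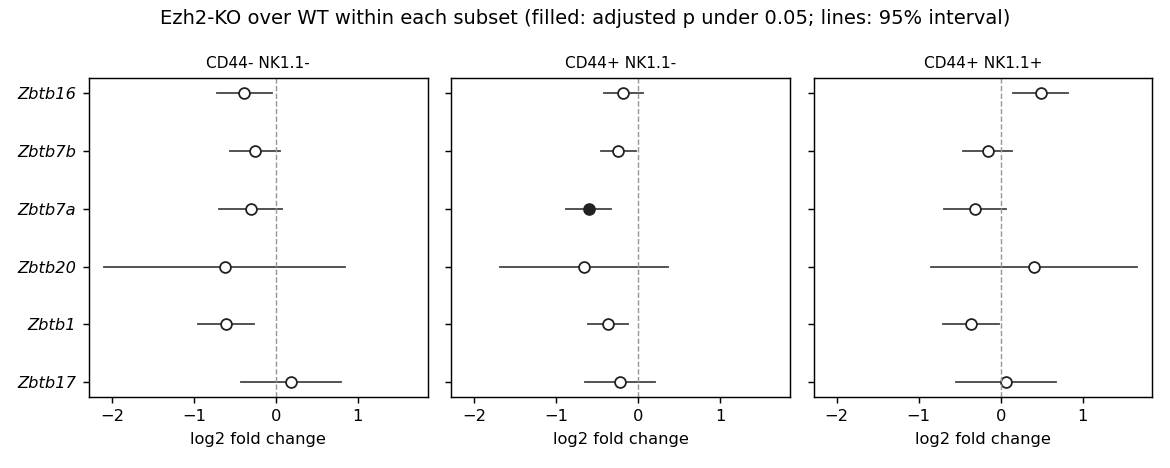
Log2 fold change of Ezh2-KO over WT (horizontal axis) within each subset for the 6 genes, with 95% intervals and filled points for an adjusted p under 0.05. Zbtb16 moves from -0.39 to 0.49 across the panels, Zbtb7a lies left of 0 in each, and its point in CD44+ NK1.1- cells is the single filled one.

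MicroRNAs of the let-7 family are known to lower PLZF in NKT cells, and LIN28 proteins block their maturation. The sequences below are shown because Zbtb16 and Zbtb7b each carry the match to the let-7 seed in the 3′ UTR, and the Lin28b gene was among those read far more often without Ezh2. Capitals mark the seed, bases 2 to 8 of let-7a and of 9 let-7 names that share it, and its complement CTACCTC in the sites. The miRNA is from RefSeq and the sites, written on the gene's strand, from the GENCODE annotation of GRCm38.
mmu-let-7a-5p: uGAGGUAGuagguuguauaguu
Zbtb16 chr9:48655260-48655283 (- strand): ttgtttttctaaaagCTACCTCtt
Zbtb7b chr3:89378617-89378640 (- strand): accctcttctcctccCTACCTCcc
The sites begin at base 1874 of 2845 in the Zbtb16 3′ UTR and at base 901 of 1882 in that of Zbtb7b. The other 4 genes hold none. Of 20952 annotated 3′ UTRs 8.849% hold these letters, and 15.19% of the 2534 close in length to that of Zbtb16. Lin28b was read 0, 4, 1 and 1 times in the WT libraries and 20, 16, 19 and 46 times in the Ezh2-KO libraries, without overlap (adjusted p = 0.00712 over the 3 subsets, edgeR). Mature let-7 was not measured, and a part of Lin28b in the level of Zbtb16 was not tested.

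Among 21 tested genes that induce PLZF or signal upstream of it, 3 rose and 4 fell in CD44+ NK1.1+ over CD44+ NK1.1- cells, a share near the 32.5% of all tested genes called there. The 4 falls became 11 without WT CD44+ NK1.1- replicate 1 or 2. Their median log2 fold change was -0.19, beside 0.0021 over all tested genes. Those that fell with Zbtb16 were Id3 (-2.03), a target of receptor signals, the SLAM receptor gene Slamf6 (-1.49), the transcription factor gene Myb (-1.43) and Tox (-0.37). The rises were in Id2 (1.79), Tcf12 (0.50) and Dicer1 (0.31). In CD44+ NK1.1- over CD44- NK1.1- cells only Id2 was called, higher (0.58), and not without either CD44- NK1.1- library or either Ezh2-KO CD44+ NK1.1- replicate. Loss of Ezh2 raised Slamf6 (0.55) and lowered Egr1 (-0.54) and Id2 (-0.49) in CD44+ NK1.1- cells, and over the 3 subsets it raised Slamf6 (0.63), Myb (0.53) and Lin28b and lowered Egr1 (-0.51) and Id2 (-0.43). The fall of Egr1 ended without Ezh2-KO CD44+ NK1.1- replicate 2, and the calls of Slamf6, Myb and Id2 without either Ezh2-KO CD44+ NK1.1- replicate, among others. The calls of Id2, Id3, Slamf6 and Myb between the 2 CD44+ subsets held in every alternative run, and those of Tcf12, Dicer1 and Tox did not hold without Ezh2-KO CD44+ NK1.1- replicate 1 or 2. Egr2, the most direct known inducer of Zbtb16, ran from 21.2 to 47.6 CPM and was not called in these comparisons.

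Of 15 tested partners and corepressors of PLZF, none was called between CD44+ NK1.1- and CD44- NK1.1- cells, beside 2.66% of all genes. In CD44+ NK1.1+ over CD44+ NK1.1- cells Cul3 (0.35), Hdac7 (0.44) and Ncor1 (0.29) rose and Ezh2 (-1.06), Bmi1 (-0.57) and Hdac3 (-0.29) fell. Of all tested genes 32.5% were called in that comparison. None of the 3 rises passed without Ezh2-KO CD44+ NK1.1- replicate 1 or 2 or the Ezh2-KO CD44+ NK1.1+ library, and Ezh2 alone of the 3 falls passed without each of these. In Ezh2-KO CD44+ NK1.1- cells Bmi1, which encodes a subunit of the Polycomb complex PRC1 that PLZF can recruit, rose by 1.05 (SE 0.0933, adjusted p = 0.00396, edgeR), from 67.0 and 62.4 CPM to 136 and 132 CPM. Its rise over the 3 subsets was 0.82 and passed in every alternative run.

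Most effector genes linked to PLZF did not fall along with it from the first subset to the last. Of 20 such genes 13 were higher and 3 lower in CD44+ NK1.1+ than in CD44- NK1.1- cells, beside 16.0% and 16.2% of all genes. The median of the 20 was 1.87 (all genes -0.01), while Zbtb16 was lower. The rises included Tbx21, the T-bet gene (3.80), the IL-2 receptor gene Il2rb (3.53) and the chemokine receptor gene Cxcr6 (1.28), along with Cd44 and Klrb1c, which the sort itself chose. The falls were in the cytokine gene Il4 (-2.98), the costimulator gene Icos (-1.59) and Il12rb1 (-0.33). Il4 stood at 35.2 and 27.0 CPM in the CD44- libraries and at 6.99 and 2.16 CPM in the CD44+ NK1.1+ libraries. Loss of Ezh2 in CD44+ NK1.1- cells lowered 4 of the 20, Ccr6 (-1.94), Tbx21 (-1.29), Il2rb (-1.16) and Cd44 (-0.62), and raised none. The median was -0.52 beside -0.0054 over all genes, of which 1.16% were called lower. The count of 4 rested on all 4 libraries: it went up without either WT replicate and was lost without either Ezh2-KO replicate. In CD44+ NK1.1- over CD44- NK1.1- cells 7 rose and none fell, beside 2.66% of all genes called in either direction and 1.07% called lower. Cd44 (3.28), 1 of the 7, was chosen by the sort itself. Among the 7 were the type 17 genes Il23r (4.05) and Il1r1 (2.91), while Zbtb16 was lower there too. The 7 became 14 without WT CD44+ NK1.1- replicate 1 or 2.

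Naive T cell genes that stay low where PLZF acts moved both ways. In CD44+ NK1.1+ over CD44+ NK1.1- cells 5 of 12 fell and 3 rose, beside 16.1% and 16.4% of all genes. Homing and naive-state genes Ccr9 (-2.85), Ccr7 (-2.83), Lef1 (-1.40), Tcf7 (-1.25) and S1pr1 (-0.95) fell, and Klf2 (0.77), Ly6c1 (2.87) and Ly6c2 (3.28) rose. The 5 falls held in every alternative run, and the 3 rises did not hold without Ezh2-KO CD44+ NK1.1- replicate 1 or 2 or the Ezh2-KO CD44+ NK1.1+ library. In Ezh2-KO over WT CD44+ NK1.1- cells only Lef1 was called, higher (1.04).

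The genes whose course was most like that of Zbtb16, by Pearson's r of log2 CPM over the 8 libraries among 1306 genes, were Itpr1 (0.970), Smo (0.967), Ptprf (0.966), Marcksl1 (0.963) and Sox4 (0.961). All 5 were highest in the CD44- NK1.1- and lowest in the CD44+ NK1.1+ libraries. Sox4, a transcription factor gene of developing thymocytes, ran from 90.5 and 65.7 CPM through 31.8 to 44.8 CPM to 8.78 and 10.9 CPM. Its steps were wider than those of Zbtb16, and those of Itpr1, an IP3-gated calcium channel gene, were narrower (115 and 114 CPM, then 92.0 to 95.6 CPM, then 54.2 and 60.3 CPM). These r values describe libraries that share subset and depth, and many genes differ between the subsets.

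**Figure D4:**
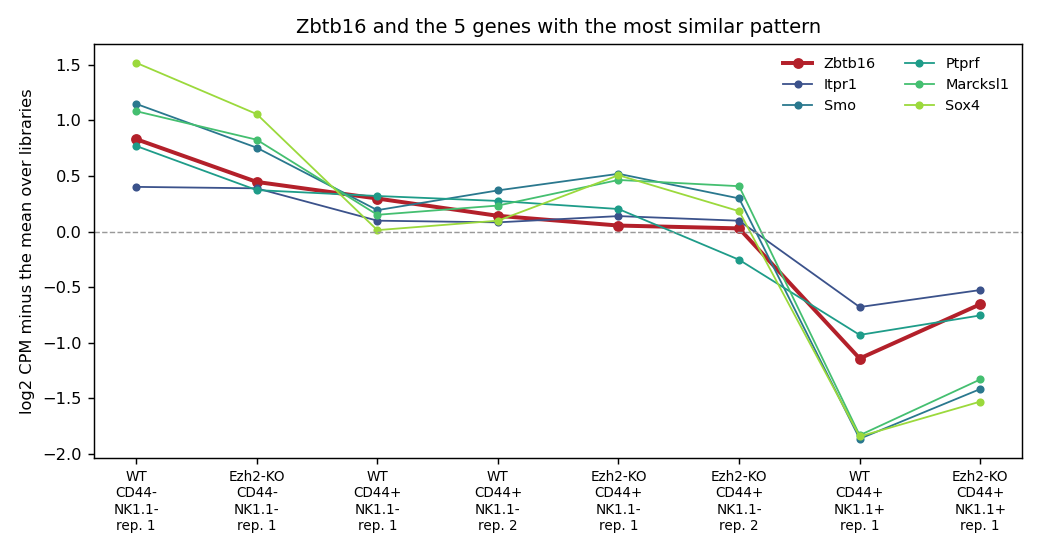
Log2 CPM minus the mean over the 8 libraries (vertical axis) for Zbtb16 (red) and the 5 genes most like it, libraries ordered by subset. All 6 lines are highest in CD44- NK1.1- cells of WT, stay near 0 in the 4 CD44+ NK1.1- libraries and drop in the CD44+ NK1.1+ libraries.

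Zbtb7b, the ThPOK gene, was the steadiest of the 6, with a range of 0.48 on the log2 scale, wider than that of 26.4% of tested genes. The WT libraries held 170 CPM in CD44- NK1.1- cells, 159 and 161 CPM in CD44+ NK1.1- cells and 185 CPM in CD44+ NK1.1+ cells. The Ezh2-KO libraries held 143, 133 and 137, and 166 CPM in the same order. Each Ezh2-KO library lay below each WT library of its subset. Over the 3 subsets the fall was -0.23 (SE 0.051, adjusted p = 0.0278, edgeR), but the adjusted p was 0.0628 to 0.117 when any 1 library other than WT CD44+ NK1.1- replicate 1 was left out. In CD44+ NK1.1+ over CD44+ NK1.1- cells Zbtb7b rose by 0.25 (SE 0.075, adjusted p = 0.0462), which did not pass without either CD44+ NK1.1+ library or either Ezh2-KO CD44+ NK1.1- replicate (0.101 to 0.274).

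Zbtb7a, the LRF gene, ran opposite to Zbtb16 in CD44+ NK1.1+ cells against each other subset. Between CD44+ NK1.1- and CD44- NK1.1- cells Zbtb7a was not called (0.08, adjusted p = 0.762, edgeR). It stood at 77.0 CPM (WT) and 62.2 CPM (Ezh2-KO) in CD44- NK1.1- cells, at 98.0 and 83.0 CPM (WT) and 59.4 and 59.6 CPM (Ezh2-KO) in CD44+ NK1.1- cells, and at 157 CPM (WT) and 127 CPM (Ezh2-KO) in CD44+ NK1.1+ cells. Both NK1.1+ libraries lay above all others, and the first 2 subsets overlapped. The rise in CD44+ NK1.1+ over CD44+ NK1.1- cells was 0.94 (SE 0.093, adjusted p = 0.00160, edgeR), and it passed within WT (0.80, adjusted p = 0.0199, 10.3% of all genes called) and within Ezh2-KO (1.09, adjusted p = 0.00586, 18.6% called) alone. Zbtb7a was also 1.52-fold lower in Ezh2-KO than in WT CD44+ NK1.1- cells (log2 fold change -0.61, SE 0.111, adjusted p = 0.0371). Without Ezh2-KO replicate 1 or 2 the adjusted p was 0.381 or 0.397. Without WT replicate 1, the library with high immediate early genes, the change was -0.48. Over the 3 subsets the fall was -0.46 (SE 0.083, adjusted p = 0.0125), with adjusted p = 0.0652 and 0.0676 without Ezh2-KO CD44+ NK1.1- replicate 1 and 2. Marker sums moved with genotype in these 4 libraries. The sum of 11 immature thymocyte markers was 433 and 404 CPM in WT and 258 and 234 CPM in Ezh2-KO. Cd4, the only one of them called, made up most of each sum and most of the difference between genotypes. The 11 gamma-delta T cell markers summed to 1085 and 1252 CPM in WT and 1760 and 1718 CPM in Ezh2-KO. Of these, 5 of 10 tested rose, beside 4.94% of all genes called in either direction. The part of these marker changes in the fall of Zbtb7a was not tested.

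Compared per kilobase of gene length (RPKM), the order of the family changed along the subsets. In WT CD44- NK1.1- cells Zbtb16 led with 87.7 RPKM, followed by Zbtb7b with 46.1 RPKM, Zbtb1 with 18.2 RPKM and Zbtb7a with 14.3 RPKM. In WT CD44+ NK1.1- cells Zbtb16 gave 60.6 and 54.4 RPKM and Zbtb7b 43.0 and 43.7 RPKM. In the WT CD44+ NK1.1+ library Zbtb7b led with 50.1 RPKM, and Zbtb7a with 29.2 RPKM stood above Zbtb16 with 22.3 RPKM. In Ezh2-KO CD44+ NK1.1+ cells Zbtb7b also led, with 44.9 RPKM, but Zbtb16 with 31.3 RPKM stayed above Zbtb7a with 23.6 RPKM. These last libraries have no replicates, and the order within them was not tested.

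Around ThPOK, 2 of 13 tested genes rose and 3 fell in CD44+ NK1.1+ over CD44+ NK1.1- cells, beside 16.4% and 16.1% of all genes. The count of falls went up without WT CD44+ NK1.1- replicate 1 or 2 and down without Ezh2-KO replicate 1. Runx3, which ThPOK opposes, rose by 1.27 (SE 0.114, adjusted p = 0.00120, edgeR), and the cytokine signal inhibitor gene Socs1, another ThPOK target, also rose (adjusted p = 0.00219). Cd4 (-1.08), Myb (-1.43) and Tox (-0.37) fell. In Ezh2-KO CD44+ NK1.1- cells Cd4 (-1.14), Runx3 (-0.86) and Socs1 (-0.75) fell and none rose. Cd4 stood at 274 and 284 CPM in WT and 131 and 122 CPM in Ezh2-KO replicates, and Cd8a was at most 11.7 CPM in any library. Socs1 was also among the 3 genes most like Zbtb7a (r = 0.992), with B4galt1 (0.993) and Arhgap17 (0.992).

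Zbtb20 was the scarcest of the 6, with 21 to 70 reads per library. WT libraries held 33 reads in CD44- NK1.1-, 49 and 24 in CD44+ NK1.1- and 55 in CD44+ NK1.1+ cells, and Ezh2-KO libraries held 21, 23 and 21, and 70. The NK1.1+ libraries were the highest, at 2.65 and 3.52 CPM against 0.945 to 2.21 CPM, and the WT replicates differed 2.14-fold. The rise in CD44+ NK1.1+ over CD44+ NK1.1- cells was 1.25 (SE 0.328, adjusted p = 0.0318, edgeR). It did not pass in DESeq2 (adjusted p = 0.161), nor without the Ezh2-KO CD44+ NK1.1+ library (0.368) or Ezh2-KO CD44+ NK1.1- replicate 1 or 2 (0.0968 and 0.119). Over CD44- NK1.1- cells the rise was 1.35 (adjusted p = 0.0449), and it did not pass without any 1 of the 6 libraries other than the WT CD44+ NK1.1- replicates (0.0774 to 0.352). The deposited gene length, 3145 bases, is far below the 23858 bases of its annotated 3′ UTR, so most of that UTR was not in the gene model counted. The same holds for Zbtb1, with a deposited length of 3987 bases and an annotated 3′ UTR of 9567 bases. Zbtb20 shares exon bases with an antisense gene and a miRNA gene, Zbtb7b with an antisense gene and Zbtb17 with Spen on the opposite strand. As the strand setting of the counting was not given, reads there cannot be assigned.

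The 250 bases before a RefSeq start (GRCm38.p6, written 5′ to 3′ on the gene's strand) are shown for the 3 genes that were higher in CD44+ NK1.1+ cells, to set these windows side by side. Capitals mark the GC box GGGCGG or its complement.
Zbtb7b chr3:89387672-89387921 (- strand): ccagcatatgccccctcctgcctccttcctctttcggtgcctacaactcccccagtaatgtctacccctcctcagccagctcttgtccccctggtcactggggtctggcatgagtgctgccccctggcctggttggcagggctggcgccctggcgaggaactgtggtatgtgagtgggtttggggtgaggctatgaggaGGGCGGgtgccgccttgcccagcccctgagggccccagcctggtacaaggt
Zbtb7a chr10:81136021-81136270 (+ strand): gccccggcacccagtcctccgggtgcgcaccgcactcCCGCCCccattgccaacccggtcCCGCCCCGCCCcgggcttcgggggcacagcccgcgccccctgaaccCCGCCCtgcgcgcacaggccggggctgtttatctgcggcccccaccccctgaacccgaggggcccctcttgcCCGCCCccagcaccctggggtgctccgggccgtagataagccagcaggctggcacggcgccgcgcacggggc
Zbtb20 chr16:43247034-43247283 (+ strand): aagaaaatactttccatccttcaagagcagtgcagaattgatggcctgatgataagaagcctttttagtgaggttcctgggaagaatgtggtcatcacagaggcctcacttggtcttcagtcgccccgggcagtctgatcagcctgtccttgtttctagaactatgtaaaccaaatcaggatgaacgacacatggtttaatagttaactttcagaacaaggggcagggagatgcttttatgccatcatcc
All 3 windows lie inside the spans given above for these genes, which reach further upstream. Which starts these cells use was not tested. The 3 windows differ widely in make-up. The Zbtb7a window is 78% G and C, holds 26 CG pairs, more than 90.41% of 32851 windows, and has 5 GC boxes, 2 of them sharing a base. That of Zbtb7b holds 5 CG pairs and 1 GC box, and that of Zbtb20 3 CG pairs and none. A GC box occurs in 32.74% of all windows. The RUNX core TGTGGT, on either strand, occurs once in each of the Zbtb7b and Zbtb20 windows, not in that of Zbtb7a, and in 14.05% of all windows. Zbtb7b has a second window, at chr3:89393379-89393628 over an exon of its own, with 7 CG pairs, 2 GC boxes and no RUNX core. The windows of Zbtb1 and Zbtb17 also lay over annotated exons, and a match of letters is no evidence of binding.

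Zbtb1 was lower without Ezh2 in every subset. WT libraries held 72.4 CPM in CD44- NK1.1-, 59.7 and 63.4 CPM in CD44+ NK1.1- and 55.5 CPM in CD44+ NK1.1+ cells. Ezh2-KO libraries held 47.6, 48.5 and 46.9, and 43.1 CPM in the same order, so that all 4 lay below all WT libraries. Over the 3 subsets the fall was -0.43 (SE 0.066, adjusted p = 0.00758, edgeR), or 1.34-fold, and it passed in every alternative run. The single-subset changes were -0.60 in CD44- NK1.1-, -0.37 in CD44+ NK1.1- and -0.36 in CD44+ NK1.1+ cells, none of which passed alone except without WT CD44+ NK1.1- replicate 1 or 2. Between subsets Zbtb1 was not called with all libraries and TMM scaling. The genes most like it, Lgals3 (r = 0.953), which encodes galectin-3, and Fut7 (0.938) and Mrgpre (0.900), were likewise lower in the Ezh2-KO library of each subset.

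Zbtb17 was called in none of the 5 comparisons with all libraries. It stood at 43.4 and 30.8 CPM in the WT and 31.5 and 32.3 CPM in the Ezh2-KO CD44+ NK1.1- replicates, at 31.7 and 36.0 CPM in WT and Ezh2-KO CD44- NK1.1- cells and at 27.3 and 28.7 CPM in CD44+ NK1.1+ cells. The highest value came from WT replicate 1, the library with high immediate early genes, and without it the genotype change in CD44+ NK1.1- cells went from -0.22 to 0.05. Without WT replicate 2 it was -0.44 and called lower (adjusted p = 4.44e-06, edgeR), the spread then resting on the Ezh2-KO pair. Without either of these WT replicates Zbtb17 was also called lower in CD44+ NK1.1+ cells than in each other subset. Around MIZ-1, 4 of 16 tested genes rose and 2 fell in CD44+ NK1.1+ over CD44+ NK1.1- cells, beside 16.4% and 16.1% of all genes. Bcl2 (2.62), a survival gene, Il7r (0.81), the IL-7 receptor gene, Socs1 and Mxd4 (1.04), a MYC antagonist gene, rose. All but Mxd4 held in every alternative run, and Mxd4 did not without the Ezh2-KO CD44+ NK1.1+ library. The cell cycle inhibitor gene Cdkn1c (-1.76) and Npm1 (-0.52) fell. The call of Cdkn1c held in every alternative run, and that of Npm1 did not hold without Ezh2-KO CD44+ NK1.1- replicate 1 or 2 or the Ezh2-KO CD44+ NK1.1+ library. Without Ezh2 in CD44+ NK1.1- cells Cdkn1c rose (1.62) and Socs1 fell (-0.75).

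The members' courses over the 8 libraries were set side by side. As descriptions, r of log2 CPM was 0.87 between Zbtb7b and Zbtb7a, 0.90 between Zbtb7a and Zbtb20 and 0.71 between Zbtb7b and Zbtb20. It was -0.74 between Zbtb16 and Zbtb7a and -0.62 between Zbtb16 and Zbtb20, and 0.08 between Zbtb7a and Zbtb1. The 8 libraries share 3 subsets and 2 genotypes and are not independent points.

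Of 42 other BTB zinc finger genes 40 were tested. In CD44+ NK1.1+ over CD44+ NK1.1- cells 9 rose and 2 fell, beside 16.4% and 16.1% of all genes. The median of the 40 was 0.15, beside 0.0021 over all genes. The rises were led by Zbtb4 (1.54), Hic1 (1.29), Zbtb42 (1.06) and Bcl6 (0.66), the follicular helper regulator, and included Zbtb37, Zbtb40, Zbtb22, Zbtb6 and Zbtb41. Zbtb4, a reader of methylated DNA, went from 36.3 to 53.9 CPM in the 4 CD44+ NK1.1- libraries to 119 and 120 CPM. Zbtb18 (-0.65) and Zbtb7c (-1.26) fell. Among these 46 genes the fall of Zbtb16 was second in size to that of Zbtb7c, which had 9 to 61 reads in those libraries. The count of 9 rises was 1 to 4 without either CD44+ NK1.1+ library or either Ezh2-KO CD44+ NK1.1- replicate, and 18 and 17 without WT replicates 1 and 2. Of the 11 calls, that of Zbtb4 held in every alternative run.

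**Figure D5:**
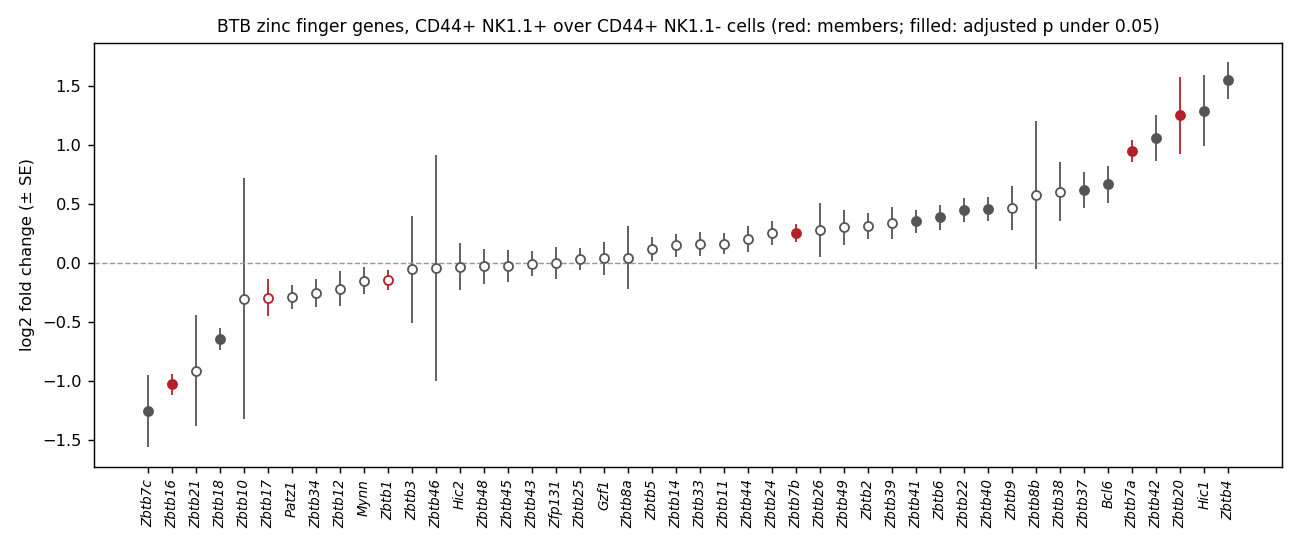
Log2 fold change in CD44+ NK1.1+ over CD44+ NK1.1- cells (vertical axis, bars for 1 SE) of 46 tested BTB zinc finger genes in rising order, members in red, filled where the adjusted p is under 0.05. Zbtb16 stands near the left end at -1.03, and Zbtb7a and Zbtb20 near the right end at 0.94 and 1.25.

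Between CD44+ NK1.1- and CD44- NK1.1- cells Zbtb7c, a close relative of Zbtb7a, was the only one of the 40 called. It had 0 reads in both CD44- libraries, where 3 reads would be 0.135 and 0.137 CPM, and 17, 21, 50 and 61 reads in the CD44+ NK1.1- libraries. Without Ezh2 in CD44+ NK1.1- cells Bcl6 (1.35) and Zbtb7c (1.61) rose and none fell. Bcl6 went from 3.07 and 2.54 CPM to 7.06 and 7.20 CPM. In the test over the 3 subsets 6 fell and 2 rose, beside 4.89% of all genes called lower and 11.3% called in either direction. Zbtb11 (-0.38), Zbtb43 (-0.41), Zbtb37 (-0.48), Zbtb41 (-0.31), Zbtb33 (-0.30) and Mynn (-0.31) fell along with Zbtb1, Zbtb7b and Zbtb7a, and the median of the 40 was -0.07 beside -0.0079 over all genes. The count of 6 falls was 1 to 3 without any 1 library other than WT CD44+ NK1.1- replicate 1, and Zbtb11 alone of the 6 held in every alternative run.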

How the data were processed

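The deposited values were raw read counts per gene, which the authors made with Subread 1.4.3-p1 and featureCounts on mm10 after base calling with CASAVA, per the submitters' processing notes. Each library was run on 4 lanes and the CD44+ NK1.1- replicates are biological, per the series design text. The annotation and the strand setting were not given in the sources used here. Replicate numbers follow deposit order. Of 27179 genes 25275 matched a symbol in a RefSeq table of GRCm38.p6, the assembly of mm10. Positions come from that table, and RPKM used the gene lengths deposited by the authors.

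Tests used edgeR 4.0.16 in R 4.3.3. Genes kept by filterByExpr (13794) were scaled by TMM. Models came from glmQLFit (robust=TRUE) and p-values from glmQLFTest, the quasi-likelihood test, adjusted by Benjamini-Hochberg over all tested genes. DESeq2 is named wherever an adjusted p is not edgeR's. A model of 6 group means with 2 residual degrees of freedom gave every comparison except Ezh2-KO against WT over the 3 subsets, which came from added effects of subset and genotype. Subset comparisons are means over both genotypes, except in runs that left out the only library of a group, which used the other genotype alone. The scripts were tested on simulated data. Alternatives were DESeq2 size factors, library size, other filters, the DESeq2 1.42.0 Wald test, limma-voom (limma 3.58.1), robust=FALSE, other models and each library left out.

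Members and gene lists were chosen with earlier results of these data known. From each list, called genes or up to 4 with the smallest p could be named; Egr2 and Cd8a fall outside this rule and were chosen after their values were seen. Likeness used genes with a mean of at least 4 log2 CPM and a range of at least 1 log2. The difference of the genotype effect between CD44+ NK1.1+ and CD44- NK1.1- cells was added after the members' counts had been seen. A gene with 0 reads is bounded at 3 counts, 0.129 to 0.151 CPM, for counting error only. Some genes of the lists are counted but not reported here by name.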

Additional observations from a re-analysis of the deposited data

How the results depend on the processing

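In all 16 alternatives run, each result that follows kept its direction and its call: Zbtb16 and Zbtb7a between CD44+ NK1.1+ cells and each other subset, and Zbtb1 between genotypes over the 3 subsets. Over all comparisons of the 6 genes, 414 alternative values kept direction and side of the threshold, 39 lost the call, 18 gained one and 9 changed sign, and no cause was tested. Scaling by library size moved the median of all genes by -0.13 in CD44+ NK1.1+ over CD44+ NK1.1- cells and by -0.14 over CD44- NK1.1- cells. It made the all-gene calls there 1533 higher and 3294 lower, and 1651 and 3328, against 2262 and 2217, and 2206 and 2232, and over genotypes 1046 and 490 against 887 and 674. It gave Zbtb7b 0.12 (adjusted p = 0.272, edgeR) and Zbtb1 -0.28 (0.0497) in the first comparison, Zbtb1 -0.41 (0.0243) and Zbtb20 1.21 (0.0561) in the second, and Zbtb7b -0.19 (0.0506) over genotypes. DESeq2 size factors gave Zbtb7b 0.24 (0.0528) and no filter gave 0.25 (0.0600), both between the CD44+ subsets. The DESeq2 Wald test gave Zbtb7b 0.24 (0.0968) and Zbtb20 1.24 (0.161) there and Zbtb20 1.35 (0.200) in CD44+ NK1.1+ over CD44- NK1.1- cells, where a filter of 1 CPM gave 1.34 (0.0533). It called 383 genes higher and 270 lower between genotypes in CD44+ NK1.1- cells, and 337 and 132 between CD44+ NK1.1- and CD44- NK1.1- cells, against 522 and 160, and 220 and 147. As the mean of 3 genotype effects Zbtb7b was at -0.22 (0.118) and Zbtb17 at 0.012 (0.977), on the other side of 0. With added effects Zbtb16 was at -0.52 (0.152) in CD44+ NK1.1- over CD44- NK1.1- cells.

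With each library left out in turn, genotype in CD44+ NK1.1- cells gave Zbtb16 -0.26 to -0.10, Zbtb7b -0.27 to -0.23, Zbtb7a -0.72 to -0.48, Zbtb20 -1.11 to -0.018, Zbtb1 -0.41 to -0.32 and Zbtb17 -0.44 to 0.049. Over the 3 subsets it gave Zbtb16 -0.25 to 0.040, with 0.029 and 0.040 without the WT or the Ezh2-KO CD44- NK1.1- library, Zbtb7b -0.25 to -0.21, Zbtb7a -0.52 to -0.38 and Zbtb17 -0.13 to 0.096. Genotype in CD44+ NK1.1+ cells gave Zbtb16 0.48 to 0.49, Zbtb7a -0.31 and Zbtb1 -0.37 to -0.36, and in CD44- NK1.1- cells it gave Zbtb16 -0.39 to -0.38, Zbtb7a -0.31 and Zbtb1 -0.60. The subset ranges that follow mix runs over both genotypes with runs within a single genotype, so they partly show differences between genotypes. CD44+ NK1.1- over CD44- NK1.1- cells gave Zbtb16 -0.61 to -0.42, Zbtb7a -0.075 to 0.23, Zbtb20 -0.22 to 0.33 and Zbtb17 -0.18 to 0.23. For Zbtb17 it was -0.11 without WT CD44+ NK1.1- replicate 1. CD44+ NK1.1+ over CD44+ NK1.1- cells gave Zbtb7b 0.21 to 0.30, Zbtb20 0.71 to 1.78, Zbtb1 -0.17 to -0.13 and Zbtb17 -0.44 to -0.15. With all libraries, Zbtb20 changed there by 0.71 within WT and 1.78 within Ezh2-KO, and Zbtb7b by 0.21 and 0.30. CD44+ NK1.1+ over CD44- NK1.1- cells gave Zbtb7b 0.12 to 0.22, Zbtb20 0.84 to 1.87, Zbtb1 -0.38 to -0.14 and Zbtb17 -0.33 to -0.21. Of the other genes followed, 2 changed sign: Bmi1 in CD44+ NK1.1- over CD44- NK1.1- cells (0.035 without the WT CD44- NK1.1- library) and Il18r1 between the CD44+ subsets (-0.12 to 0.73, the lowest without the Ezh2-KO CD44+ NK1.1+ library). Both of these runs compared the subsets within the other genotype alone.

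No paired analysis was possible because the labels carry no replicate numbers that link libraries. With 2 libraries per genotype in 1 subset and 1 in the others, the spread came from 2 pairs, and leaving out a member of a pair changed it for every gene. The exact Poisson intervals of Zbtb20 in the WT CD44+ NK1.1- replicates, 1.63 to 2.92 and 0.661 to 1.54 CPM, did not overlap, and they cover counting error only.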
